A study of Mus musculus with 8 samples.

Results

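The genes described here are the NADPH oxidase subunits and the inducible nitric oxide synthase of the mouse gut: Nox1, Noxo1, Noxa1, Nox4, Duox1, Duox2, Duoxa2, Cyba, Cybb and Nos2. They were chosen by name and matched by gene symbol, and all 10 were found among the 43629 genes counted in each library. NADPH oxidases are membrane enzymes that pass electrons from NADPH across the membrane to oxygen and so release superoxide or hydrogen peroxide on the far side. Nox1 needs the membrane partner Cyba, the organizer Noxo1 and the activator Noxa1; Cybb, with the same membrane partner, is the catalytic subunit of the phagocyte oxidase; Nox4 needs only Cyba; and Duox2 depends on its maturation factor Duoxa2. Nos2 makes nitric oxide from arginine, and in the gut it is made by epithelial cells and by activated macrophages.

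Polyadenylated RNA was sequenced from tumor (4 libraries) and from small intestine (4 libraries) of mice. Both groups carry the same labels apart from tissue: an APC mutant genotype, the strain C57B6/129 and no treatment. The labels name neither the Apc allele nor the age or sex of the animals, and they do not tie libraries to animals. The question the design states is how intestinal tumors of these mice compare with their small intestine.

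Gene-assigned counts ran from 53856561 to 84433335 per library, so that 3 counts correspond to 0.0331 to 0.0630 CPM. CPM is the usual unit of counts relative to library size, and values here are scaled by the library total and by the TMM factor, a correction for the make-up of each library. TMM factors were 1.33 to 1.38 in tumor and 0.687 to 0.788 in small intestine, and leaving them out moved the median fold change of all genes by 0.863 on the log2 scale toward tumor. Changes are therefore given with TMM and, where the call or direction differs, with library totals alone. Markers of gut epithelium were present in both groups: the summed level of 7 pan-epithelial markers was 6169 to 8476 CPM in tumor and 18190 to 24690 CPM in small intestine. The sum of 12 enterocyte markers was 1093 to 1599 CPM in tumor and 70600 to 86920 CPM in small intestine, and all 12 fell. Apc itself averaged 139.9 ± 5.90 CPM in tumor against 120.2 ± 24.2 in small intestine (SD, n = 4), a log2 difference of 0.22 that did not pass (edgeR adjusted p = 0.188; 1.09 with library totals, adjusted p = 4.76e-05). Since the source animal of each library is not stated, p-values describe the scatter of these samples alone, and that scatter may be technical. In bulk tissue, fewer cells of a type and less RNA per cell cannot be told apart.

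Promoter windows from RefSeq, on the GRCm38.p6 build, were found for 9 of the 10 genes, Nos2 being the one without a match. Each window runs from 250 bases before the start site to 50 bases after it and is printed 5′ to 3′ on the gene's own strand. Shown are 4 of them: Nox1 and its organizer Noxo1, which moved in opposite directions with TMM, and Duox2 and Duoxa2, which lie head to head and were high and low in much the same libraries. Capitals mark matches to the motifs searched on both strands.
Nox1, chrX:134111805-134112104, minus strand: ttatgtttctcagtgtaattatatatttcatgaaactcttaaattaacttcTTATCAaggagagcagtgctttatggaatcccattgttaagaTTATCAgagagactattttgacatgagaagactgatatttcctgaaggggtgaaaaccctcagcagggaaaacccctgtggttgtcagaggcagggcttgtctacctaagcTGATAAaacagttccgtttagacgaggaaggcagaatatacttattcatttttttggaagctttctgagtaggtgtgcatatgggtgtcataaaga
Noxo1, chr17:24695984-24696283, plus strand: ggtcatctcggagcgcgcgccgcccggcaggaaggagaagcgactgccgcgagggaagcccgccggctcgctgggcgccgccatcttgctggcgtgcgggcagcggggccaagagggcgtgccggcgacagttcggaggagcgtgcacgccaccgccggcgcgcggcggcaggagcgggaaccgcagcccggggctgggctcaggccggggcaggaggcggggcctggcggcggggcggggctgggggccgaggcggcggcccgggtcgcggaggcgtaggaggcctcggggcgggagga
Duox2, chr2:122298178-122298477, minus strand: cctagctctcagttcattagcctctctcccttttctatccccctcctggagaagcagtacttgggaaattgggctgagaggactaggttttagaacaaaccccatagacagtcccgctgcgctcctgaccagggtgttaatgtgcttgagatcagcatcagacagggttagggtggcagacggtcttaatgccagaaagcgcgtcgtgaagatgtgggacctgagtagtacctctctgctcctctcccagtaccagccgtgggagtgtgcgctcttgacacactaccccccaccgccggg
Duoxa2, chr2:122298650-122298949, plus strand: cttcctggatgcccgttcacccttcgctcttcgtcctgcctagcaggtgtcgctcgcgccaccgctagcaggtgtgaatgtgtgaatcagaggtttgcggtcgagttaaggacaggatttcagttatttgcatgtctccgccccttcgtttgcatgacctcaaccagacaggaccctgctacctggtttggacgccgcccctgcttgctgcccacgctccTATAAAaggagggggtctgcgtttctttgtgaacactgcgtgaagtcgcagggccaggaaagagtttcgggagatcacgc

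The G and C content of the Nox1 window is 38.0%, with 2 CpG, and that of the Noxo1 window 80.3%, with 46 CpG, against a median of 52.7% over all 32851 windows of the same length. The capitals in the Nox1 window are 3 matches to TGATAA, a motif of GATA factors. They lie at bases -199 to -194, -157 to -152 and -46 to -41 from the start site, the first and second of them on the other strand. That motif occurs in 9.05% of all windows. The capitals in the Duoxa2 window are a match to TATAAA, the TATA box, at bases -30 to -25, and 13.6% of all windows hold one. The Noxo1 and Duox2 windows held no match to any motif searched. The other motifs were the STAT motif TTCNNNGAA, in 8.3% of windows, the TCF and LEF motif CTTTGAT, in 3.73%, and a second GATA motif, AGATAA, in 11.2%. The AP-1 motif TGACTCA was in 5.2% and GGANTTTCC, part of the NF-kB site, in 1.25%. Among the windows not printed, those of Noxa1, Cyba and Cybb held AGATAA, those of Cyba, Cybb and Duox1 held TGATAA, and that of Nox4 held a STAT match at bases -222 to -214. The GATA matches of Cyba share a base. The RefSeq start sites of Duox2 and Duoxa2 are 673 bases apart. In the GENCODE annotation, used for gene coordinates below, Duox2 reaches to base 122298449, closer to Duoxa2.

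Of the 10 genes, Nox1, Nox4 and Cyba rose in tumor, Noxo1 and Nos2 fell, and Noxa1, Duox1, Duox2, Duoxa2 and Cybb did not pass the test (edgeR, adjusted p under 0.05). That is 3 higher and 2 lower of 10, where 74.3% of the 17029 genes tested were called, 38.9% higher and 35.4% lower. The share called among these genes was thus below the background. With library totals, 3 rose and 1 fell, against 62.0% and 17.6% of all genes (79.6% called). CPM values of the tumor and small intestine libraries did not overlap for 5 of the 10, against 70.5% of all genes tested. The median log2 fold change over the 10 was 0.14 with TMM and 1.01 with library totals, beside 0.07 and 0.94 over all genes. In the FPKM table, which is per length, 7 of them passed the level filter: Nox1 rose, Noxo1 and Nos2 fell and the other 4 did not pass (limma; 82.7% of 12849 genes were called, 64.6% higher and 18.1% lower).

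**Figure D1:**
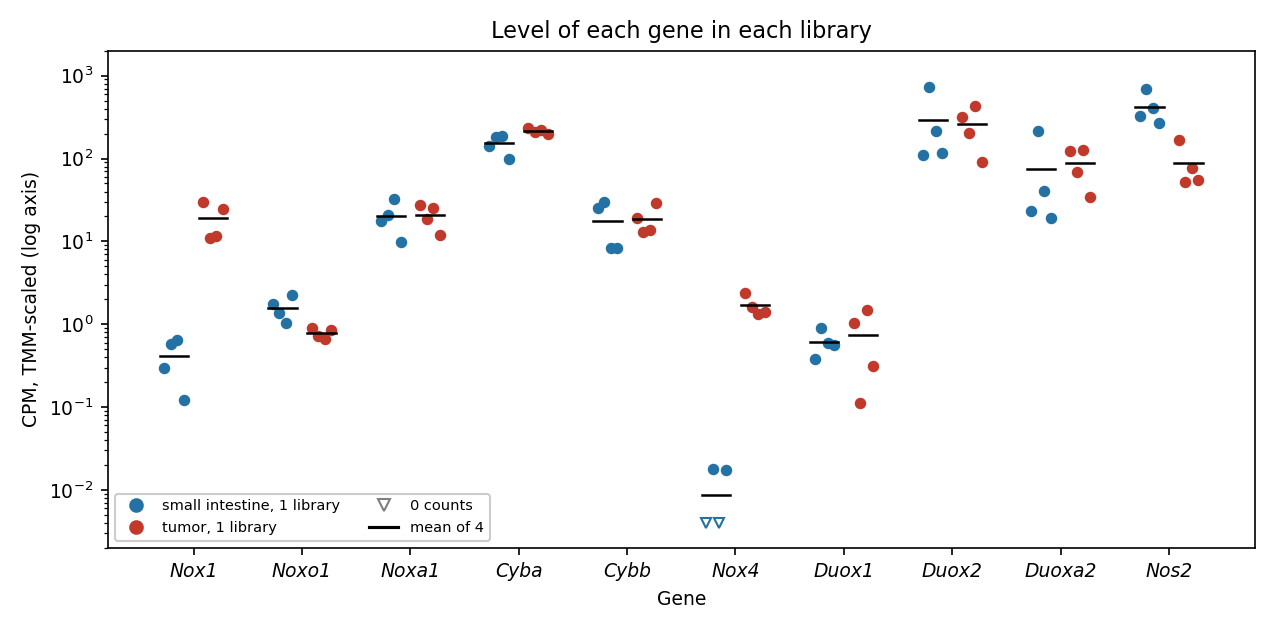
Level of the 10 genes in each of 4 small intestine (blue) and 4 tumor (red) libraries, as TMM-scaled CPM on a log axis; bars are means and open triangles are libraries with 0 counts. Nox1 and Nox4 stand apart between the tissues, Nos2 is higher in each small intestine library, and the small intestine points of Duox2 and Duoxa2 are spread the widest upward.

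**Figure D2:**
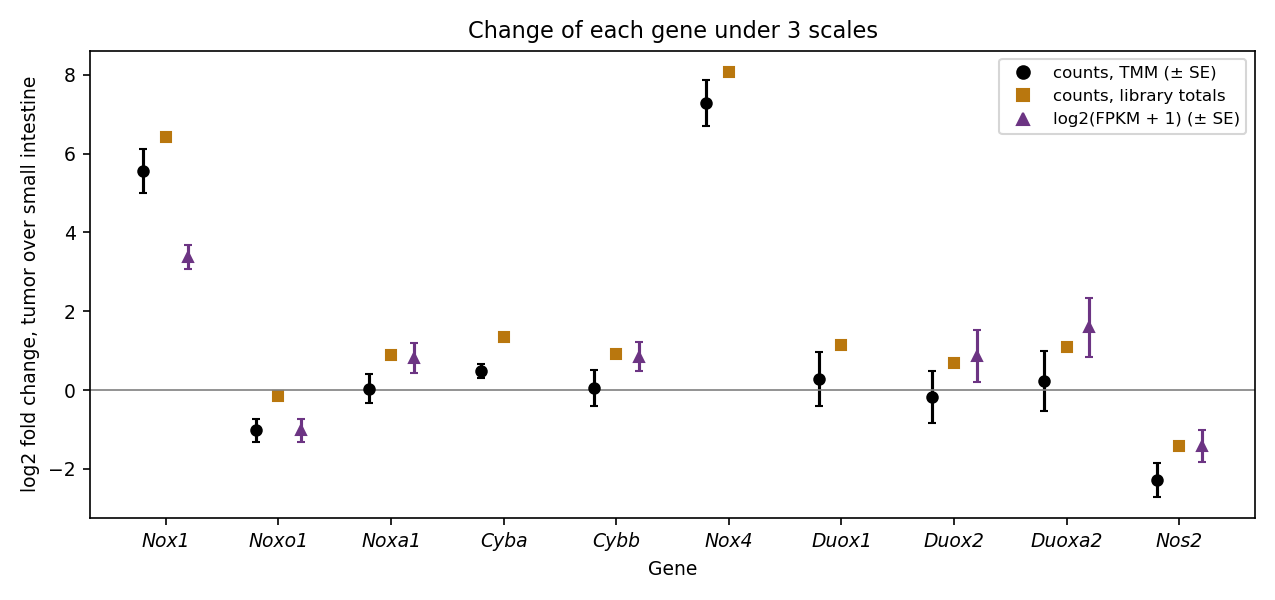
Change of the 10 genes in tumor over small intestine, as the log2 fold change from counts with TMM (circles, ± SE), from counts with library totals (squares) and on the log2(FPKM + 1) scale (triangles, ± SE, for the 7 genes tested). Nox1 and Nox4 are far above 0 on each scale drawn for them and Nos2 is below 0 on all 3, whereas Duox2 lies on opposite sides of 0 with TMM and with library totals.

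Nox1, the catalytic subunit of the epithelial oxidase best known from the colon, was close to absent in small intestine and plain in tumor. It lies at chrX:134086421-134221956 on the minus strand in the GENCODE annotation. The RefSeq start site behind its promoter window, base 134111854, is well inside that span, so the motif positions hold for that start site only. The tumor libraries had 29.8, 11.1, 11.6 and 24.8 CPM (replicates 1 to 4), from 2702, 896, 831 and 2201 counts. The small intestine libraries had 0.295, 0.583, 0.651 and 0.121 CPM, from 17, 33, 31 and 7 counts. Tumor replicates 1 and 4 were the higher pair, and the lowest tumor library was still far above the highest small intestine library. The rise was 5.56 ± 0.57 on the log2 scale (SE; edgeR adjusted p = 1.73e-05). On the log2(FPKM + 1) scale, which understates the change of a gene this low in 1 group, it was 3.38 ± 0.29 (limma adjusted p = 6.07e-06). Of its exonic bases 12.1% lie opposite exons of Cstf2, a gene of RNA 3′ end processing, which had 64.8 to 81.6 CPM in tumor and 29.9 to 33.2 CPM in small intestine; reads there cannot be told apart without a known strand setting. Of the colon and distal gut markers, 9 were found and 5 tested, of which 2 rose, Aqp8 and Slc37a2, and 2 fell. Their sum was 42.5 to 236 CPM in tumor and 455 to 742 CPM in small intestine, most of it from Car4 and Ang4, and Aqp8 rose by 6.63 from a level near 0 (edgeR adjusted p = 3.25e-05). The part of colon-like cells in the Nox1 level was not tested. Hoxd12 was at 0 in both tissues, Hoxd13 in small intestine and Hoxb13 in tumor.

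Noxo1, the organizer that holds Nox1 in its active complex, went the other way from Nox1, on few counts. The gene is at chr17:24696234-24700529 on the plus strand. Tumor libraries had 0.904, 0.730, 0.656 and 0.857 CPM from 82, 59, 47 and 76 counts, and small intestine libraries had 1.75, 1.36, 1.03 and 2.22 CPM from 101, 77, 49 and 129 counts. All tumor values were under all small intestine values, though the gap between the nearest libraries was small. The log2 change was -1.01 ± 0.29 (edgeR adjusted p = 0.0107), and with library totals it was -0.14 and did not pass (adjusted p = 0.666). The FPKM table gave 39.2, 21.9, 29.0 and 18 in tumor and 56.7, 55.6, 77.0 and 33.4 in small intestine. These groups overlapped, and the change was -1.02 ± 0.29 on the log2(FPKM + 1) scale (limma adjusted p = 0.00994).

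The 2 tables differ on how much Noxo1 there is. Of its 3013 exonic bases, 70.4% lie opposite exons of Tbl3, a gene of ribosome assembly on the other strand, and of its 9 exons only the first, of 891 bases, has no Tbl3 exon opposite. FPKM was 45.9 to 295 times CPM (by library total) per kilobase of exon for Noxo1, and 0.541 to 4.07 times for the other genes here that could be compared. With all counts set on the 891 bases alone, CPM by library total per kilobase was 1.19 ± 0.184 in tumor and 1.315 ± 0.385 in small intestine (SD, n = 4). On all exonic bases these means were 0.353 and 0.389. The gap is thus smaller on the 891 bases, but both measures stay far under the FPKM values. The absolute level of Noxo1 is uncertain by an amount that depends on the bases used. Tbl3 moved in the opposite direction to Noxo1, averaging 58.0 ± 4.64 CPM in tumor against 29.4 ± 2.67 in small intestine (SD, n = 4; log2 change 0.98, edgeR adjusted p = 1.48e-05). The part of Tbl3 reads in the Noxo1 values was not tested.

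**Figure D3:**
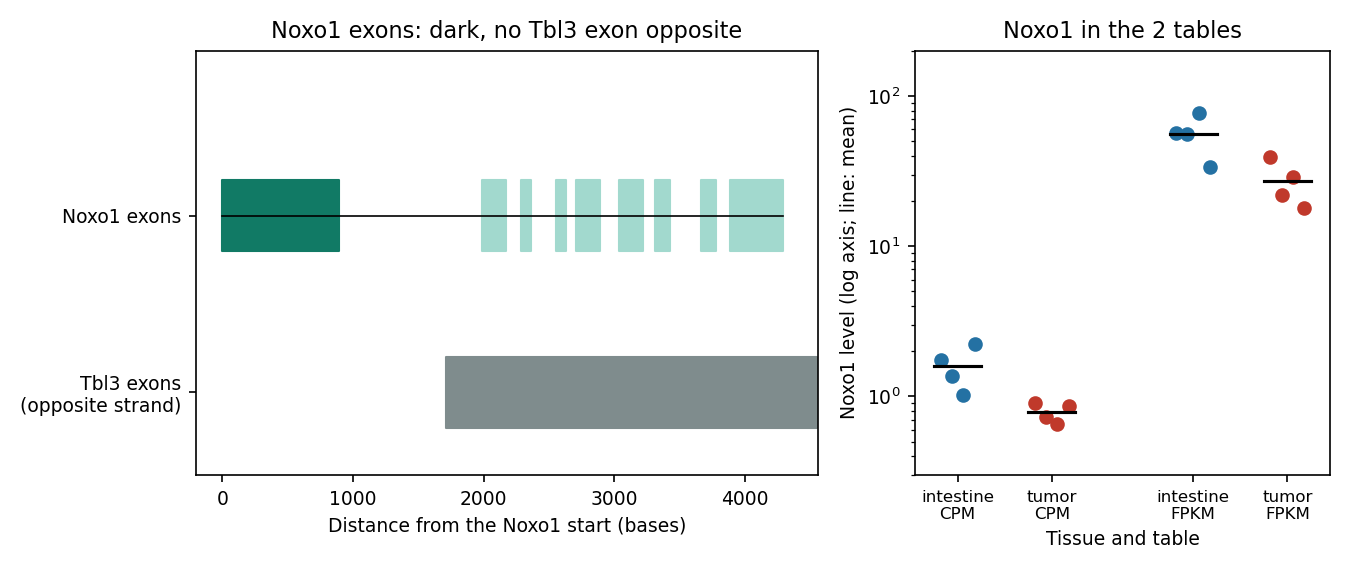
Left, the exons of Noxo1 along its length in bases, dark where no exon of Tbl3 lies opposite and light where one does, with the merged Tbl3 exons below. Right, Noxo1 in each library as CPM and as FPKM on a log axis, with means as lines: both tables place tumor (red) lower on average, but the FPKM values are far above the CPM values.

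Noxa1, the activator of the same complex (chr2:25085667-25095149, minus strand), had tumor values of 27.7, 18.6, 25 and 11.8 CPM and small intestine values of 17.7, 21.1, 32.2 and 9.92 CPM. The groups overlapped over almost their whole ranges, and replicate 4 was the lowest library of each. The log2 difference was 0.04 ± 0.36 (edgeR adjusted p = 0.925), 0.88 with library totals (adjusted p = 0.0558) and 0.81 ± 0.37 on the log2(FPKM + 1) scale (limma adjusted p = 0.0691). Set against Nox1 within each library, a measure that no scaling touches, the partners took very different proportions in the 2 tissues. Noxa1 had 0.475 to 2.15 counts per Nox1 count in tumor and 36.2 to 82.1 in small intestine. Noxo1 had 0.0303 to 0.0658 counts per Nox1 count in tumor and 1.58 to 18.4 in small intestine. In the FPKM table the same ratio was 1.06 to 3.66 in tumor and 182 to 328 in small intestine. Its size is thus as uncertain as the Noxo1 level, though both tables put it lower in tumor. These ratios were not tested, because small intestine replicate 4 had under 10 counts of Nox1.

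Cyba, the membrane partner shared by Nox1, Cybb and Nox4 (chr8:122424776-122432930, minus strand), was abundant in every library. Tumor libraries had 231, 207, 222 and 197 CPM, a narrow range, and small intestine libraries had 143, 181, 187 and 100.02 CPM. The lowest tumor library was just above the highest small intestine library. The log2 change was 0.49 ± 0.18 (edgeR adjusted p = 0.0355), less than the 0.863 by which scaling moves the median gene, and 1.34 with library totals (adjusted p = 0.000204). The call was lost without tumor replicate 1, 2 or 3 or without small intestine replicate 1, with values of 0.449 to 0.53 and edgeR adjusted p of 0.0558 to 0.0842. No FPKM value of Cyba was used here. As CPM by library total per kilobase of exon its level was 278 ± 17.0 in tumor and 110 ± 31.4 in small intestine (SD, n = 4), the highest of the 10 genes on that scale in both tissues.

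Cybb, the catalytic subunit of the phagocyte oxidase (chrX:9435252-9487771, minus strand), did not separate the tissues. Its tumor values were 19.1, 12.8, 13.8 and 28.7 CPM and its small intestine values were 25, 29.7, 8.37 and 8.35 CPM. Small intestine replicate 2 was the highest of all 8 libraries, replicate 1 was within the tumor range, and replicates 3 and 4 were lower than any tumor library. The log2 difference was 0.06 ± 0.45 (edgeR adjusted p = 0.911), 0.92 with library totals (adjusted p = 0.104) and 0.85 ± 0.36 on the log2(FPKM + 1) scale (limma adjusted p = 0.0522). The summed level of 13 macrophage markers, a lineage that makes Cybb, was 317 to 536 CPM in tumor and 156 to 409 CPM in small intestine. Of the 12 tested 8 rose and 1 fell, the latter being Ptprc, which all leukocytes make. In small intestine replicates 1 and 2 had the higher sums, carried by Lyz2 and Ptprc, whereas Cd14 and Itgam did not follow that order. The neutrophil list, another lineage of the phagocyte oxidase, had a sum of 62.6 to 158 CPM in tumor and 1.45 to 11.2 CPM in small intestine. In each tumor library most of that sum was Mmp9, at 41.5 to 88.0 CPM. All 8 neutrophil markers tested rose, while Elane was at 0 in all tumor libraries. The part of either lineage in the Cybb level was not tested.

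The cytosolic partners and regulators of the phagocyte oxidase, taken as 1 list, were lower in tumor with TMM. Of 10 tested in edgeR, 8 fell, 0 rose and 2 did not pass, where 35.4% of all genes fell. The median log2 change of the list was -1.04, beside 0.07 over all genes. With library totals 4 fell and 2 rose, beside 17.6% and 62.0% of all genes. The direction thus depends on the scaling for some of them. Ncf1, the organizer subunit, averaged 6.44 ± 1.46 CPM in tumor against 17.4 ± 8.33 in small intestine (log2 change -1.44, adjusted p = 0.00438; -0.58 and adjusted p = 0.167 with library totals). Rac2, the GTPase of blood cell oxidases, averaged 14.8 ± 4.88 and 64.4 ± 35.1 CPM (-2.12, adjusted p = 0.000778). Prkcd, a kinase that phosphorylates the organizer, averaged 82.8 ± 2.84 and 447.6 ± 72.8 CPM (-2.44, adjusted p = 3.51e-07). Hvcn1, a proton channel that offsets the charge moved by the oxidase, averaged 6.76 ± 1.47 and 33.7 ± 21.2 CPM (-2.32, adjusted p = 0.000801), and 44.2% of its exonic bases lie opposite exons of Tctn1. Rac1, the widely made GTPase, averaged 327.4 ± 14.6 and 738.5 ± 136 CPM (-1.17, adjusted p = 5.45e-05; -0.30 and adjusted p = 0.0264 with library totals; SD, n = 4 throughout), and 51.4% of its exonic bases lie opposite exons of Daglb.

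Ncf4, a further cytosolic subunit, averaged 4.0 ± 1.06 CPM in tumor against 7.48 ± 3.34 in small intestine (SD, n = 4; -0.90, edgeR adjusted p = 0.0371), a call lost with library totals (-0.05, adjusted p = 0.900), without a filter on low counts (-0.81, adjusted p = 0.0594), at a minimum fold of 2 (adjusted p = 0.628), with the replicate block (-0.82, adjusted p = 0.0987) and when tumor replicate 1, 2 or 4 or small intestine replicate 1 or 2 was left out (-0.90 to -0.68, adjusted p of 0.0726 to 0.11). Markers of lymphocytes, which also make Rac2 and some of these partners, moved the same way. Of 8 T cell markers 8 fell, with a sum of 22.3 to 37.7 CPM in tumor and 62.5 to 245 CPM in small intestine. With library totals 4 of the 8 fell, beside 17.6% of all genes. Of 8 B and plasma cell markers 6 fell and 2 did not pass, although their sums overlapped (182 to 860 CPM and 186 to 1049 CPM). The part of lymphocytes in the partners' levels was not tested.

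Ratios to Cybb within each library, which do not depend on the scaling, set the subunits side by side. Ncf1 had 0.261 to 0.547 counts per Cybb count in tumor and 0.884 to 1.48 in small intestine, a mean log2 difference of -1.55. Rac2 had 0.552 to 1.54 and 2.67 to 5.30 counts per Cybb count, a difference of -2.25. Against Ptprc, the surface marker of all leukocytes, Cybb itself stood higher in tumor, with 0.688 to 1.2 counts per Ptprc count there and 0.157 to 0.298 in small intestine (2.05). For each of these 3 ratios the tissues did not overlap and the exact permutation test (2-sided) gave p = 0.0286, the smallest that 4 against 4 libraries can give. Of 16 ratios fixed for this comparison 10 could be tested, and after adjustment over them the exact permutation p of those 3 was 0.0952, so 0 passed. With this few libraries a ratio cannot pass after adjustment unless most of the 10 reach the smallest p. No conclusion is therefore drawn from the adjusted values of those 3. Against Csf1r, the macrophage receptor, Cybb had 0.354 to 0.685 counts in tumor and 0.441 to 1.00 in small intestine, ranges that overlap (difference -0.42, exact permutation p = 0.257). The ratio of Ncf4 to Cybb differed by -1.05 (exact permutation p = 0.0571) and that of Cybb to Cyba by -0.30 (p = 0.629).

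Nox4, an oxidase that is active without cytosolic partners and is known from fibroblasts, kidney and vessel walls, was read in tumor and barely in small intestine. The gene is at chr7:87246096-87398710 on the plus strand. Tumor libraries had 218, 131, 96 and 124 counts (2.40, 1.62, 1.34 and 1.40 CPM), and small intestine libraries had 0, 1, 0 and 1 counts. The groups did not overlap. Over the groups 569 tumor counts stood against 2 small intestine counts, a ratio of 189 after TMM scaling, with a 95% exact binomial interval of 51.9 to 1560. By library totals alone the ratio is 345 (95 to 2850), and both intervals cover counting error only. The change passed in edgeR (adjusted p = 3.37e-06), and it is among the lowest of the 10 genes in level, at 0.653 ± 0.174 FPKM in tumor. The sum of 8 fibroblast markers was 1366 to 2070 CPM in tumor and 49.4 to 107 CPM in small intestine, and all 8 rose. All 7 endothelial markers rose as well, from sums of 9.30 to 30.2 CPM in small intestine to 226 to 286 CPM in tumor, and 4 of 6 smooth muscle markers rose. None of these markers was at 0 in a whole group, and their part in the Nox4 level was not tested.

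Duox2, the dual oxidase that releases hydrogen peroxide at the epithelial surface, and Duoxa2, which brings it there, were present in all libraries and varied more within a tissue than between tissues. Duox2 (chr2:122279247-122298449, minus strand) had 320, 205, 428 and 91.8 CPM in tumor and 111.5, 737, 215 and 116 CPM in small intestine. Duoxa2 (chr2:122298900-122302885, plus strand) had 122, 69.6, 126 and 34.5 CPM in tumor and 23.2, 218, 40.3 and 19.2 CPM in small intestine. Small intestine replicate 2 was the highest of all 8 libraries for both, tumor replicates 3 and 1 came next, and tumor replicate 4 was the lowest tumor library for both. Between the highest and lowest small intestine library Duox2 differed 6.61-fold and Duoxa2 11.4-fold.

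Neither gene passed over all 8 libraries. The log2 difference was -0.17 ± 0.66 for Duox2 (edgeR adjusted p = 0.819) and 0.23 ± 0.77 for Duoxa2 (adjusted p = 0.796). With library totals these were 0.69 (adjusted p = 0.356) and 1.10 (adjusted p = 0.217), so the direction of Duox2 depends on the scaling. A single library decides much of this. Without small intestine replicate 2, Duoxa2 rose by 1.67 (adjusted p = 0.011), and Duox2 was at 0.82 (adjusted p = 0.155). On the log2(FPKM + 1) scale Duox2 was at 0.87 ± 0.66 (limma adjusted p = 0.244) and Duoxa2 at 1.60 ± 0.75 (adjusted p = 0.0748). Without the same library both rose there, by 1.46 (adjusted p = 0.025) and by 2.34 (adjusted p = 0.00212).

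Within each library the proportion of Duoxa2 to Duox2 varied little, and its mean was higher in tumor. There were 0.383, 0.339, 0.293 and 0.377 Duoxa2 counts per Duox2 count in tumor and 0.208, 0.295, 0.188 and 0.166 in small intestine. Only small intestine replicate 2, the library with the most of both, reached the tumor range, and it passed the lowest tumor library by a small margin. The mean log2 difference was 0.73 (exact permutation test, 2-sided, p = 0.0571, adjusted p = 0.0952), which did not pass. Of the exonic bases of Duoxa2, 42.8% lie opposite exons of Duoxa1, the maturation factor of Duox1. Duoxa1 was low, with 3.46, 1.08, 2.78 and 1.31 CPM in tumor and 0.417, 3.22, 1.18 and 0.793 CPM in small intestine, and its highest small intestine library was again replicate 2. Its difference of 0.62 did not pass (edgeR adjusted p = 0.389), and without that library it was 1.44 (adjusted p = 0.0372). In the same library the T cell marker sum was highest, at 244.7 CPM, as were Nos2 and Irf1, and the part of any of these in its Duox values was not tested.

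**Figure D4:**
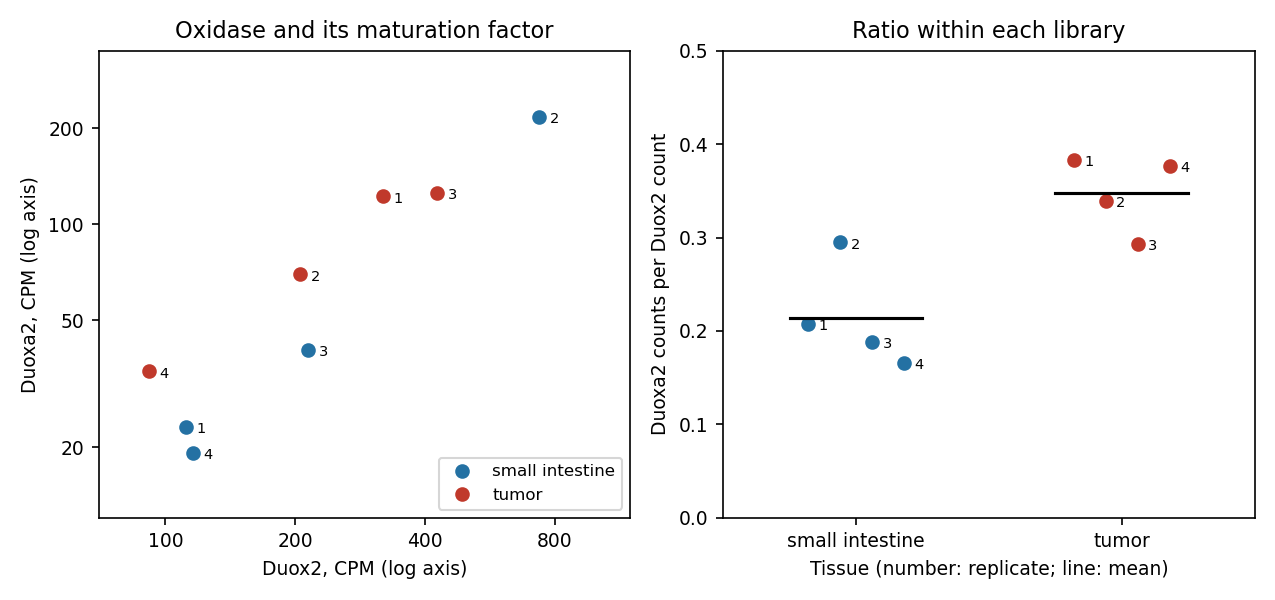
Left, Duoxa2 against Duox2 as CPM in each library, on log axes, numbered by replicate: small intestine replicate 2 is the highest for both, and the remaining small intestine points lie under the tumor points of similar Duox2 level. Right, Duoxa2 counts per Duox2 count, with means as lines, 0.293 to 0.383 in tumor (red) and 0.166 to 0.295 in small intestine (blue).

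Duox1, the dual oxidase known from airway and thyroid, was near the bottom of the range. Tumor libraries had 1.05, 0.111, 1.49 and 0.316 CPM and small intestine libraries had 0.382, 0.902, 0.588 and 0.569 CPM. The tumor values spread 13.4-fold and enclosed all small intestine values, and the log2 difference was 0.28 ± 0.68 (edgeR adjusted p = 0.723). Beside Duox2 it was minor in both tissues, with 0.000543 to 0.00349 counts per Duox2 count in tumor and 0.00122 to 0.00492 in small intestine. The gene is at chr2:122315672-122347972 on the plus strand.

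Nos2, the inducible nitric oxide synthase (chr11:78920787-78960254, plus strand), was lower in tumor on each scale tested. Tumor libraries had 166, 52.6, 76.2 and 55.4 CPM and small intestine libraries had 330.2, 682, 409 and 265 CPM. The highest tumor library, replicate 1, was under the lowest small intestine library, and small intestine replicate 2 was the highest. The log2 change was -2.27 ± 0.43 (edgeR adjusted p = 0.00101), -1.41 with library totals (adjusted p = 0.0121) and -1.41 ± 0.41 on the log2(FPKM + 1) scale (limma adjusted p = 0.0104). Per count of Epcam, a pan-epithelial marker, Nos2 had 0.0316 to 0.105 counts in tumor and 0.0584 to 0.162 in small intestine. Those ranges overlap, and the difference of -1.10 in the mean log2 ratio did not pass (exact permutation test, 2-sided, p = 0.0571, adjusted p = 0.0952). The same ratio for Duox2 was 0.0755 to 0.262 in tumor and 0.0254 to 0.175 in small intestine (1.33, exact permutation p = 0.114). Of the pan-epithelial markers 6 of 7 fell as well (4 with library totals, where 2 rose), and of the enterocyte markers 12 of 12 on both scalings. Of all genes 35.4% fell with TMM and 17.6% with library totals. The ratio to Epcam for Nox1 was 0.00666 to 0.0204 and 2.66e-05 to 0.000218, which was not tested for lack of counts and did not overlap.

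The per-length order of 9 of the genes, from mean FPKM over 4 libraries, differed between the tissues; Cyba, the highest of the 10 by counts per kilobase, has no place in it. In tumor Duoxa2 led with 105.4 FPKM, followed by Duox2 (45.4), Noxo1 (27.0), Nos2 (20.7), Nox1 (12.9), Noxa1 (12.5) and Cybb (5.28), and each of these overlapped its neighbour in the order. Nox4 (0.653) and Duox1 (0.137) followed without overlap. In small intestine Noxo1 (55.7), Nos2 (54.9), Duoxa2 (50.8), Duox2 (29.6), Noxa1 (6.98) and Cybb (2.63) also overlapped in turn, and Nox1 (0.241), Duox1 (0.0665) and Nox4 (0.00341) stood apart below. The place of Noxo1 in both orders rests on the FPKM table alone and is not borne out by the counts, which give it 0.353 ± 0.0545 in tumor and 0.389 ± 0.114 in small intestine as CPM by library total per kilobase of exon (SD, n = 4). Across the 10 genes, the highest tumor library was replicate 1 for 6, replicate 3 for 3 and replicate 4 for 1, and the highest small intestine library was replicate 2 for 6, replicate 3 for 3 and replicate 4 for 1.

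Of 10 other genes of the 2 enzyme families and their organizers, 9 were tested, of which 6 rose, 2 fell and 1 did not pass (edgeR; median log2 change 1.68, beside 0.07 over all genes, of which 38.9% rose and 35.4% fell). With library totals 6 rose and 1 fell, beside 62.0% and 17.6% of all genes, so the share that rose is near the background there. Nos1, the neuronal nitric oxide synthase, averaged 6.70 ± 3.95 CPM in tumor against 0.0621 ± 0.0497 in small intestine (SD, n = 4; 6.69, adjusted p = 1.39e-05). Nos3, the endothelial form, averaged 3.56 ± 0.519 and 0.189 ± 0.224 CPM (4.2, adjusted p = 0.000291), beside the rise of the 7 endothelial markers, whose part in it was not tested. Of the exonic bases of Nos3, 32.3% lie opposite exons of other genes. Sh3pxd2b, an organizer related to Noxo1, averaged 101.9 ± 4.82 and 3.24 ± 0.371 CPM (4.97, adjusted p = 1.60e-08). Rac3, a GTPase akin to Rac1, rose by 2.65 (adjusted p = 9.85e-07), and Nos1ap, an adaptor of Nos1, fell by 2.35 (adjusted p = 3.31e-05). Nox3, the oxidase of the inner ear, had 4, 2, 5 and 0 counts in tumor and 0 in each small intestine library, too few to test.

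Around Nos2, 13 genes of arginine supply and use, of the cofactor tetrahydrobiopterin and of the clearance of inhibitory arginines were tested, of which 6 rose, 6 fell and 1 did not pass (edgeR; median log2 change -0.21; 38.9% and 35.4% of all genes). With library totals 7 rose and 4 fell, beside 62.0% and 17.6% of all genes. Of the arginine transporters and enzymes, Slc7a1, Slc7a2, Ass1 and Arg1 rose, Arg2 fell and Asl did not pass. Of the cofactor genes Gch1 rose and Gchfr, Pts, Spr and Qdpr fell, and with library totals Pts and Spr did not pass and Asl rose. Both arginases, which draw on the same substrate, changed, in opposite directions. Arg1 had 84.2, 38.3, 92.9 and 17.5 CPM in tumor and 0.330, 0.124, 0.231 and 0.155 CPM in small intestine, so that tumor replicates 1 and 3 were the highest and no tumor library came near small intestine (8.11 ± 0.67, adjusted p = 4.40e-06). Arg2, the mitochondrial form, averaged 3.08 ± 0.644 CPM in tumor against 127.8 ± 41.9 in small intestine (-5.37, adjusted p = 3.27e-07). Ass1, which rebuilds arginine from citrulline, averaged 48.9 ± 2.37 and 2.40 ± 0.856 CPM (4.35, adjusted p = 5.06e-07). Ddah2, which clears methylated arginines that inhibit the enzyme, averaged 35.6 ± 1.43 and 1.57 ± 0.669 CPM (4.49, adjusted p = 1.39e-06). Ddah1, of the same function, went the other way. It averaged 28.4 ± 7.33 CPM in tumor against 84.5 ± 9.93 in small intestine (-1.575, adjusted p = 5.89e-05; -0.71 and adjusted p = 0.00455 with library totals).

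Genes that remove superoxide and peroxide did not move together: of 14 tested 4 rose, 4 fell and 6 did not pass, with a median of -0.05 (edgeR; 74.3% of all genes were called). With library totals 9 rose and 4 fell, beside 62.0% and 17.6% of all genes, so the balance depends on the scaling. Cat, the catalase of peroxisomes, averaged 35.5 ± 3.18 CPM in tumor against 343.1 ± 96.4 in small intestine (SD, n = 4; -3.27, adjusted p = 8.04e-07). Sod3, the secreted superoxide dismutase, averaged 63.3 ± 5.03 and 9.71 ± 6.75 CPM (2.70, adjusted p = 0.000393). Prdx4, the peroxiredoxin of the secretory pathway, rose by 2.39 (adjusted p = 4.52e-06) and Gpx3, the secreted glutathione peroxidase, by 1.97 (adjusted p = 5.49e-05).

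Among 21 cytokines, receptors, sensors and transcription factors known to induce oxidases or Nos2, 20 were tested, of which 6 rose, 9 fell and 5 did not pass (edgeR; median -0.43). With library totals 9 rose and 5 fell, beside 62.0% and 17.6% of all genes. The share called with TMM is close to the 74.3% of all genes. Those with the largest rise were the inflammatory cytokine Il1b, averaging 28.6 ± 12.3 CPM in tumor against 1.05 ± 0.568 in small intestine (SD, n = 4; 4.76, adjusted p = 1.46e-05), its receptor Il1r1 (4.12, adjusted p = 3.17e-05), Tnf (3.20, adjusted p = 3.11e-05) and the endotoxin receptor Tlr4 (2.85, adjusted p = 0.000125). These rose alongside the neutrophil markers and most macrophage markers, whose part in their levels was not tested. Ifngr1 and Irf1, chosen after their values were seen, belong to the interferon gamma pathway that induces Nos2 in macrophages. Ifngr1 averaged 96.1 ± 18.2 CPM in tumor against 311.7 ± 57.5 in small intestine (-1.70, adjusted p = 2.13e-05). Irf1 averaged 131.2 ± 31.1 and 294.3 ± 163 CPM (-1.17, adjusted p = 0.0104; -0.29 and adjusted p = 0.436 with library totals), and its highest library was small intestine replicate 2, as for Nos2, Duox2 and Duoxa2. Ifng itself averaged 0.627 ± 0.699 and 0.540 ± 0.530 CPM and did not pass (0.22, adjusted p = 0.830).

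**Figure D5:**
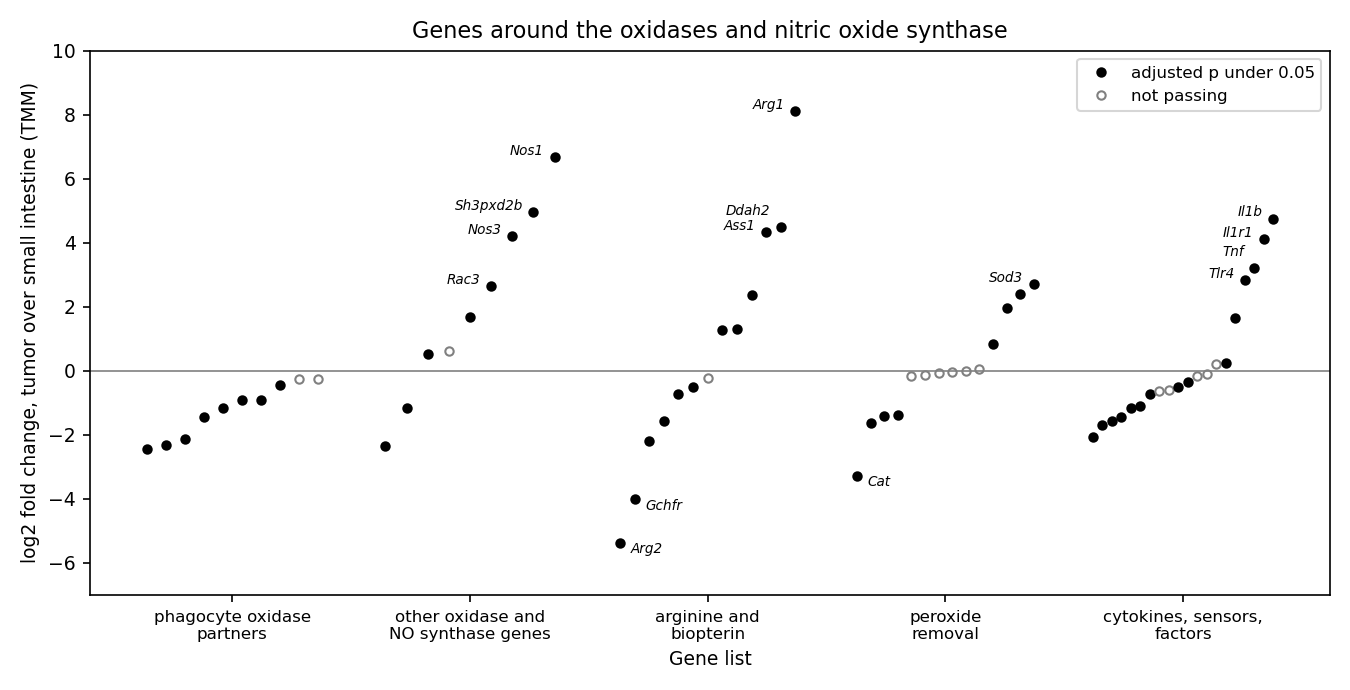
Each tested gene of 5 lists as 1 point, ordered within its list by the log2 fold change in tumor over small intestine (counts, TMM); filled points have an edgeR adjusted p under 0.05 and the farthest are named. All points of the phagocyte oxidase partners and regulators lie below 0 with this scaling (2 of them rose with library totals). The arginine list reaches from Arg2 at -5.37 to Arg1 at 8.11.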

How the data were processed

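Polyadenylated RNA from 4 tumor and 4 small intestine libraries was compared, with groups taken from the tissue labels. The authors deposited whole-number read counts per gene, used as deposited, without normalization. The authors also deposited FPKM values, which are relative to gene length and library size. The build GRCm38 and the tools HTSeq 0.6.0, Cufflinks 2.2.1, STAR and FastQC are listed, per the submitters' processing notes. What each tool did, its parameters, the strand setting and the annotation were not given in the sources used here. Ensembl identifiers gave a symbol for 42462 of the 43629 genes, and coordinates and exons come from a GENCODE M21 annotation of GRCm38. FPKM values of 192 genes, Cyba among them, were not used here.

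The quasi-likelihood test of edgeR 4.0.16 in R 4.3.3 was run on counts (TMM, filterByExpr, no term but tissue). Trended limma 3.58.1 was run on log2(FPKM + 1) where the mean FPKM reached 1 or more. P-values were 2-sided and adjusted by the Benjamini-Hochberg method over all genes tested, and an adjusted p under 0.05 was called. Ratios of 2 genes within a library (0.5 added to each count) were compared by exact permutation tests where each library had 10 or more counts of both. Means are given ± SD over 4 libraries. Intervals and the floor of 3 counts cover counting error only. Library pairs within a group differed by more than sampling noise (chi-square over its degrees of freedom at least 38.9), so none looked like a repeat count of another. Each library was treated as 1 replicate. The chi-square cannot show that libraries come from separate animals, and the labels do not tie them to animals. On simulated counts for this comparison (17029 genes, 200 changed) edgeR recovered 63% of 2-fold and 94% of 4-fold changes, with 1.88% false calls, and limma 63%, 94% and 2.48%. Far fewer genes were changed there than were called in the data, and limma was given the known library scaling. Those rates therefore do not cover the choice of scaling.

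The members and gene lists were chosen with earlier results of these data known. Named were all members; from each pathway list up to 4 called genes with the largest change, plus the largest in the direction of fewer calls; Nox3, Duoxa1, Nos1, Nos3, Ncf1, Ncf4, Rac1, Rac2 and Apc in any case. A gene that the rule also covers is not reported here. Cstf2 and Tbl3 were named for their overlap with members, and Tctn1 and Daglb for theirs with Hvcn1 and Rac1. Other genes of the arginine and marker lists were named after their values were seen. Alternatives were other size factors and filters, DESeq2 1.42.0, a fold threshold of 2 (glmTreat), a block on replicate numbers, another pseudocount and leaving out each library. After the data were seen, TGATAA and TATAAA, the counts per kilobase, the Nox4 count ratio, and tumor replicate 1 and small intestine replicate 2 left out together were added.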

Additional observations from a re-analysis of the deposited data

Results flagged for a closer look

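In 4 groups of 4 libraries, the highest library lay far from the other 3, by a gap that took up most of the group's range (above Dixon's 95% critical value). Duox2 was at 737.2 CPM in small intestine replicate 2 and at 111.5 to 214.7 CPM in the others. Duoxa2 was at 217.7 CPM in the same library and at 19.18 to 40.28 CPM in the others. Nos3, the endothelial nitric oxide synthase, was at 0.5208 CPM in small intestine replicate 1 and at 0.04198 to 0.1207 CPM in the others. Tnf was at 16.25 CPM in tumor replicate 1 and at 10.56 to 11.14 CPM in the others. These are 4 of 88 groups examined, and chance marks about 1 in 20.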

How the results depend on the processing

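Nox1, Nox4 and Nos2 kept their direction and their call under all 17 alternatives tried on the counts (log2 changes of 5.25 to 6.42, 6.91 to 8.07 and -2.76 to -1.41), whereas Cyba lost its call under 6 of them and Noxo1 under 2, library totals and a minimum fold of 2. With library totals, 10564 of all genes were higher and 2996 lower, 1 member was lower and Duox2 stood at 0.691. With a minimum fold of 2, 3753 and 2979 genes were called and 1 member was lower. Of the phagocyte oxidase partners and regulators 3 were lower, of the other family genes 1 and of the inducers 4. On FPKM, 2 members were higher without a filter, and 1 to 4 when 1 library was left out. Leaving out 1 library gave log2 changes of -0.192 to 0.352 for Noxa1, -0.258 to 0.678 for Duox1, -0.472 to 0.823 for Duox2, -0.0954 to 1.67 for Duoxa2 and -0.186 to 0.416 for Cybb, so the direction of these 5 depends on single libraries. Without tumor replicate 1 and small intestine replicate 2 together, Noxa1 was at -0.109 and Duox2 at 0.716. The cause of these shifts was not tested.

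Whether the replicate numbers pair the libraries is not known. Deviations of same-numbered tumor and small intestine libraries correlated at -0.0672, -0.0763, 0.0136 and -0.159, and not every library correlated best with its own number. Such correlations cannot show that libraries are unpaired, and the labels do not tie libraries to animals. With the replicate block, 6301 genes were higher and 5592 lower, the members called on counts numbered 3 higher and 2 lower, 2 members were higher in FPKM, Duox1 stood at -0.123 and Duox2 at 0.117. Depth limits Nox1 and Nox4 in small intestine (7 to 33 and 0 to 1 counts) and Nox3 in both tissues.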

Other observations

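Markers of the stomach, which the small intestine should lack, were read in tumor: of 7 listed, 5 were tested and all 5 rose (edgeR; median log2 change 6.06). Their sum was 13.7 to 19.6 CPM in tumor and 0.0862 to 0.168 CPM in small intestine, where Gkn1, Gkn2 and Gif were at 0. Gchfr, the feedback regulator of the enzyme that starts the synthesis of the Nos2 cofactor tetrahydrobiopterin, averaged 2.15 ± 0.603 CPM in tumor against 34.7 ± 2.75 in small intestine and fell by 4.01 on the log2 scale (edgeR adjusted p = 4.18e-07). Gch1, that enzyme, rose by 1.28 (adjusted p = 0.0014), averaging 64.4 ± 18.6 CPM in tumor against 26.6 ± 7.15 in small intestine (SD, n = 4). Both of these genes were chosen after their values were seen.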
